A study of Saccharomyces cerevisiae with 13 samples.

Results

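The data cover the first 20 min after budding yeast cells were let out of a mating pheromone arrest, and rest on 3 of the 13 two-colour arrays of a time course. The 3 arrays were chosen by their time labels alone. The 10 min and 20 min samples were taken after release into YEPD, a rich medium with glucose, and the 0 min sample was taken while alpha factor still held the cells. All 3 samples come from Saccharomyces cerevisiae of the W303 background labelled as a yox1 yhp1 mutant, and the labels do not say how the mutations were made. Each sample was labelled with Cy5 and hybridised beside 1 Cy3 reference, an unsynchronised wild-type culture grown overnight in YEPD to an OD of 0.6. There was 1 array per time, with no replicates and no dye swap, so the differences below carry no test and no p-value, and 1 culture stands behind all of them.

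Alpha factor is the pheromone that alpha cells secrete and a cells sense through the receptor Ste2. The signal passes through a G protein and a chain of kinases to the transcription factor Ste12, which switches on genes for agglutination, cell fusion and nuclear fusion, while Far1 holds the cell in G1. Once the pheromone is gone, G1 cyclin activity rises, the transcription factors SBF and MBF drive the genes of budding and DNA synthesis, and the histone genes follow as replication begins. YOX1 and YHP1 encode related homeodomain proteins that, bound beside Mcm1, repress promoters with an early cell cycle box (ECB), an element active around the M/G1 boundary.

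Values are log10 ratios of a sample to the reference after each array was centred on its median, so a value above 0 means more RNA than in the reference. The direction, Cy5 over Cy3, is likely rather than stated: it is inferred from the dyes in the labels, and every higher and lower below rests on it. A change is the difference of 2 such values, later minus earlier. Because no time was repeated, the error of a change was taken from each gene's scatter around a smooth cycle curve on the 10 arrays of 30 to 120 min, whose median was 0.0545 log10 units for a difference (quartiles 0.0488 and 0.0626 over genes). A gene counted as changed where the difference reached 2-fold (0.301 log10 units) and 3 times its own scatter. Of 6205 genes on the arrays, 6046 had values on all 3 arrays and on at least 8 of the other 10. The spread of values was not the same on all arrays: the SD over genes was 0.127 at 0 min, 0.171 at 10 min and 0.160 at 20 min, and lay between 0.0947 and 0.130 on the later arrays. Forcing all arrays to the same spread (quantile normalization) made the first step smaller in 233 of the 238 genes that changed in it, though larger in some histone genes, and its effect is given with each group of genes.

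The first 10 min brought far more change than the second. At 10 min 164 genes were higher than at 0 min (2.71% of those tested) and 74 were lower (1.22%). At 20 min only 17 genes were higher than at 10 min (0.281%) and 36 lower (0.595%), while set against 0 min, 204 were higher (3.37%) and 71 lower (1.17%). With quantile normalization the first step gave 100 higher and 28 lower, and the second 8 higher and 8 lower. Of the genes called without it, 95 higher and 27 lower were called with it in the first step. Over the 5674 genes with values on all 13 arrays, the first step changed 228 genes and the second 51, and the 9 steps between 30 and 120 min changed 4 to 73. The median change over all genes was near 0 in both steps, at -0.0095 and -0.00057. Removal of the pheromone and the move into fresh medium took place together and cannot be told apart on these arrays. Since RNA came from whole cultures, a lower share of cells with a transcript and less transcript per cell cannot be told apart either.

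**Figure D1:**
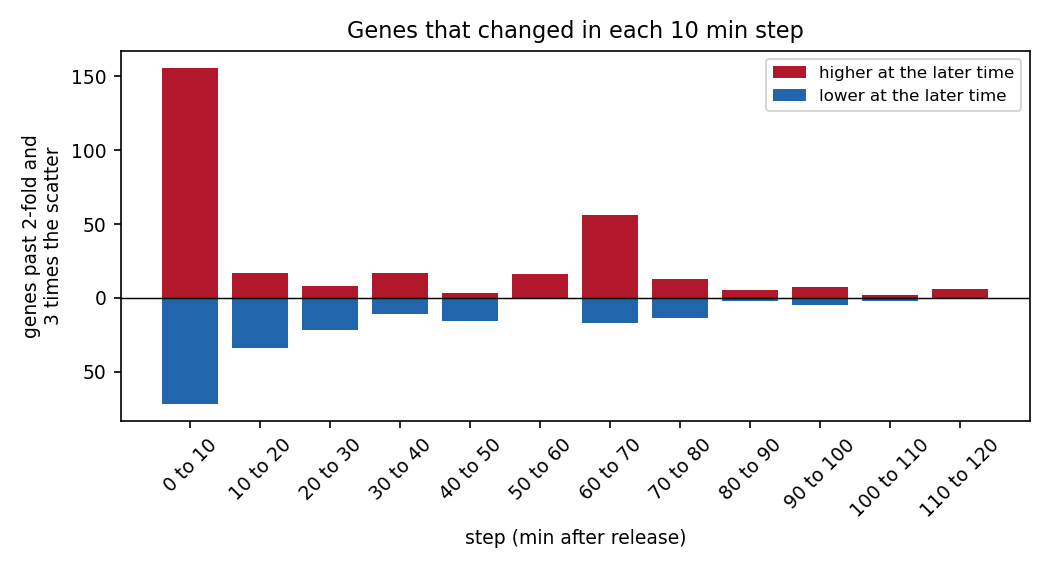
Number of genes that changed in each 10 min step of the course, over the 5674 genes with values on all 13 arrays. Bars above the line count genes higher at the later time and bars below it genes lower at the later time (at least 2-fold and 3 times the scatter). The step into 10 min holds 228 genes, the next 51, and the largest later step, 60 to 70 min, 73.

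The 2 steps together sorted 360 genes (5.95% of those tested), 242 higher and 118 lower. The largest class changed at once and kept at least 0.5 of the change at 20 min, with 140 genes higher and 63 lower. In 5 genes higher and 5 lower, both steps counted in the same direction. A brief change, of which less than 0.5 was left at 20 min, was seen in 19 genes higher and 6 lower. Late genes, which moved less than 1.5-fold at first and then counted in the second step, numbered 4 higher and 14 lower. The other 74 higher and 30 lower genes changed gradually, 100 of these 104 by passing the threshold only from 0 to 20 min or together with the second step, and 4 in the second step alone. With quantile normalization the class that kept its change held 120 genes in all, the brief class 1 and the late class 4, so the sizes of the brief and late classes depend on this choice. These class sizes describe the values that made them and are no test.

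**Figure D2:**
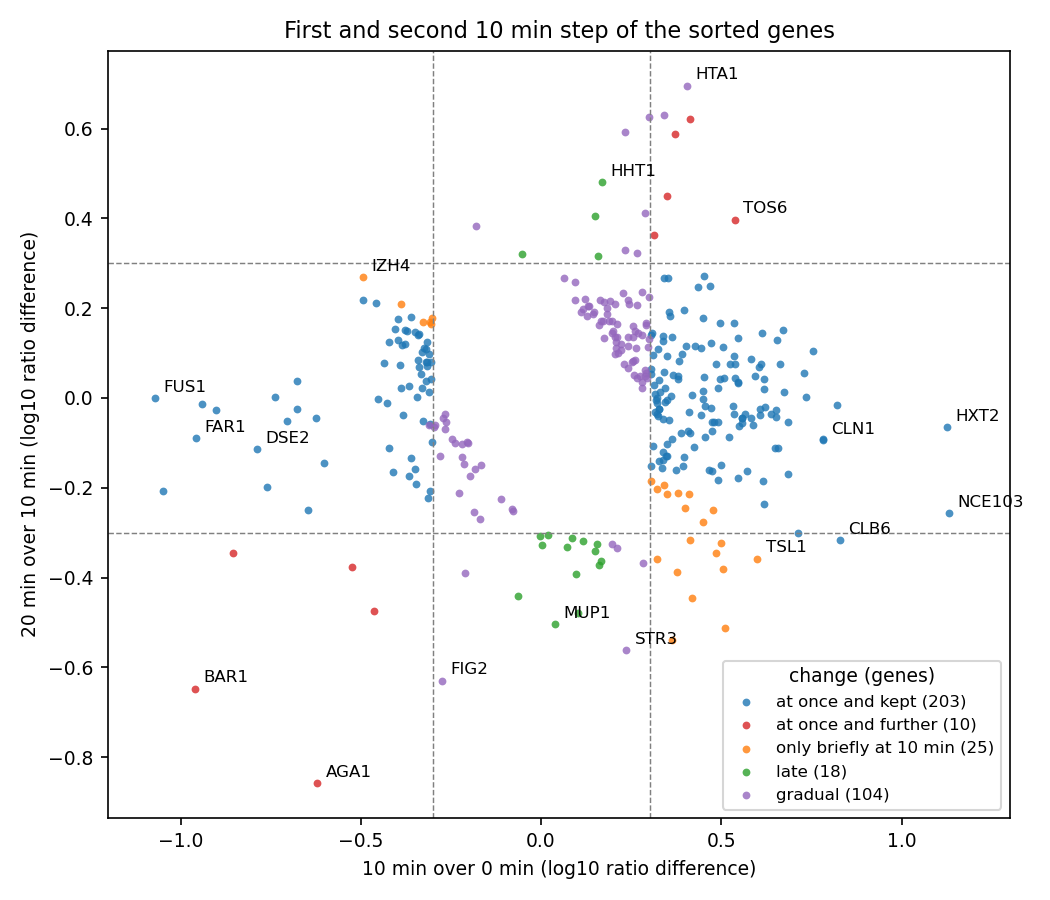
Change from 0 to 10 min (horizontal axis) against change from 10 to 20 min (vertical axis), as differences of log10 ratios, for the 360 sorted genes. Each point is 1 gene, colours give the class and dashed lines mark 2-fold. NCE103 and HXT2 lie farthest to the right, FUS1 farthest to the left, and AGA1 is the lowest point, with -0.62 in the first step and -0.86 in the second.

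Genes of the mating programme made up most of the largest falls. All 26 genes of the mating target list (agglutination, cell and nuclear fusion, pheromone-regulated membrane proteins) had a lower value at 10 min than at 0 min. Of these 26, 17 fell in the first step (against 1.22% of all genes), 5 fell in the second (0.595% of all genes) and 22 were past the threshold from 0 to 20 min, with none higher. With quantile normalization 14 fell in the first step and 3 in the second. The median change of the list was -0.40 in the first step and -0.15 in the second, against -0.0095 and -0.00057 over all genes. At 0 min 22 of the 26 stood above every later array from 30 min on, which was so for 15.4% of all genes.

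FUS1, whose membrane protein is needed for fusion of mating cells, had log10 ratios of 0.89, -0.18 and -0.18 at 0, 10 and 20 min. It was 11.7-fold lower at 10 min than at 0 min (change -1.07, scatter 0.073), and its 10 later values, between -0.31 and -0.13, enclose the level reached at 10 min. The fall was thus complete on the first array after release. PRM1, another membrane protein of cell fusion, stood at 1.40, 0.35 and 0.14, and fell 11.2-fold in the first step (change -1.05, scatter 0.056). KAR4, a transcription factor for nuclear fusion genes, went the same way with 0.76, -0.18 and -0.19. FUS2, which acts with FUS1 in fusion, had 0.66, -0.01 and 0.03. FUS1, KAR4 and FUS2 changed by less than their scatter in the second step, and PRM1 by -0.21.

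Some genes of the cell surface moved over both steps, whereas the membrane protein genes FUS1 and PRM1 had no counted second step. AGA1, the anchor subunit of the a-agglutinin that sticks mating cells together, stood at 1.42, 0.80 and -0.06. It fell 4.18-fold in the first step and 7.21-fold in the second, 30.1-fold in all (change -1.48 from 0 to 20 min, scatter 0.058). AGA2, its binding subunit, had 1.05, 0.53 and 0.15 and fell 3.34-fold and then 2.38-fold. FIG1, a membrane protein of calcium uptake during mating, had 1.03, 0.56 and 0.09, with 2 nearly equal falls. With quantile normalization neither AGA2 (-0.27 and -0.23) nor FIG1 (-0.21 and -0.30) passed the threshold in either step. FIG2, a wall adhesin of mating cells, moved more in the second step: it stood at 0.95, 0.67 and 0.04, and most of its 8.03-fold fall came in the second step (4.26-fold). The chitin synthase gene CHS1 (0.36, 0.19, -0.08) and AFR1, which works in mating projections (0.54, 0.46, 0.21), also fell more in the second step. With quantile normalization their 2 steps were nearly equal, at -0.19 and -0.19 for CHS1 and -0.14 and -0.14 for AFR1. On the same 3 arrays, FUS1, FUS2 and KAR4 lay within their later range at 10 min, when AGA1 and AGA2 were still above theirs. Not all members moved: PRM8 (-0.03 in the first step) and PRM9 (-0.0026) stayed near 0, and KAR3, a motor that also serves mitosis, had 0.22, 0.01 and 0.20.

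Of the 18 genes of the signalling pathway, 6 fell in the first step (against 1.22% of all genes), none rose, and the median change was -0.20. With quantile normalization 4 fell, without GPA1 and STE12. The fallen genes were the receptor gene STE2, the G protein alpha subunit gene GPA1, the kinase gene FUS3, the transcription factor gene STE12, and the negative and arrest arms SST2 and FAR1. FAR1 stood at 0.48, -0.48 and -0.57, a 9.08-fold fall in the first step (scatter 0.061). SST2, whose product speeds up GTP hydrolysis by Gpa1 and so damps the signal, had 0.62, -0.23 and -0.58, and fell again in the second step (2.21-fold), though not past the threshold with quantile normalization (-0.29). FUS3 had 0.34, -0.34 and -0.36, and STE12 had -0.03, -0.46 and -0.33. Among those that did not reach the threshold were 3 kinase genes: STE11 (0.01, 0.05, 0.03), STE7 (-0.11, -0.06, -0.07) and STE20 (-0.03, -0.15, -0.03) all stayed within 0.2 of the reference. DIG2, whose product restrains Ste12, stood out by staying high, at 0.35, 0.35 and 0.45, above its later range of -0.05 to 0.29.

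BAR1, the secreted protease that destroys alpha factor, had the largest fall over the 20 min of any gene in the mating, signalling and mating-type lists. Its values were 0.69, -0.27 and -0.91, 9.12-fold lower in the first step and 4.44-fold lower in the second, so that it was 40.5-fold lower at 20 min than at 0 min (change -1.61, scatter 0.090). BAR1, SST2, AGA1, AGA2 and FIG1 were the 5 genes that fell past the threshold in both steps, and of these BAR1 and AGA1 did so with quantile normalization too. At 20 min BAR1 stood below all 10 later arrays, whose lowest value was -0.80.

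The a-cell genes were read as cell type markers, although the hold by alpha factor, which a cells sense, already points to a cells. Of the 7 a-specific genes, 3 also belong to the mating list and STE2 to the signalling list. At 0 min all 7 stood above their later arrays, which was so for 15.4% of all genes. In the first step 5 fell (against 1.22% of all genes) and in the second 3 (0.595%). With quantile normalization the counts were 4 and 1. MFA1, which encodes the a-factor pheromone, fell mainly in the second step, with 0.66, 0.45 and 0.06, whereas MFA2, the other a-factor gene, had 0.17, 0.15 and 0.01 and did not reach the threshold. The receptor gene STE2 had 0.46, -0.19 and -0.44, and STE6, the a-factor exporter, 0.32, -0.05 and -0.22. None of the 4 alpha-specific genes passed the threshold in any comparison, and on the 3 arrays they lay between -0.14 and 0.12. No label gives the mating type of the reference culture, so these ratios show the change in a-cell genes and not which mating type the cells had.

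Daughter cell separation genes, which are used as cells leave mitosis, also fell. Of 15 tested, 4 fell in the first step, DSE1, DSE2, SCW11 and AMN1 (against 1.22% of all genes), and none rose. DSE2, a daughter-specific wall protein, had -0.48, -1.26 and -1.38 (6.15-fold in the first step, scatter 0.18). SCW11, a wall glucanase-like protein, had -0.16, -0.90 and -0.90 (5.45-fold, scatter 0.16), and AMN1, an inhibitor of mitotic exit, had -0.04, -0.74 and -0.79. None of the 4 fell further past the threshold in the second step. With quantile normalization 3 fell in the first step, without DSE1, and none of the list changed in the second. EGT2, another separation gene, was already low, with -0.85, -1.02 and -1.22, and changed by less than its scatter of 0.23 in each step. The list has a median of -0.01 in the first step, because its other members did not join: SIC1, the inhibitor of S phase cyclins, had -0.30 on all 3 arrays. DSE4, a glucanase of the septum, went the other way at first (-0.31, -0.03, -0.39), with a counted fall in the second step. CIS3 and HSP150, wall proteins of the same family, parted: CIS3 had -0.48, -0.25 and 0.08, and HSP150 had 0.11, 0.28 and -0.08.

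**Figure D3:**
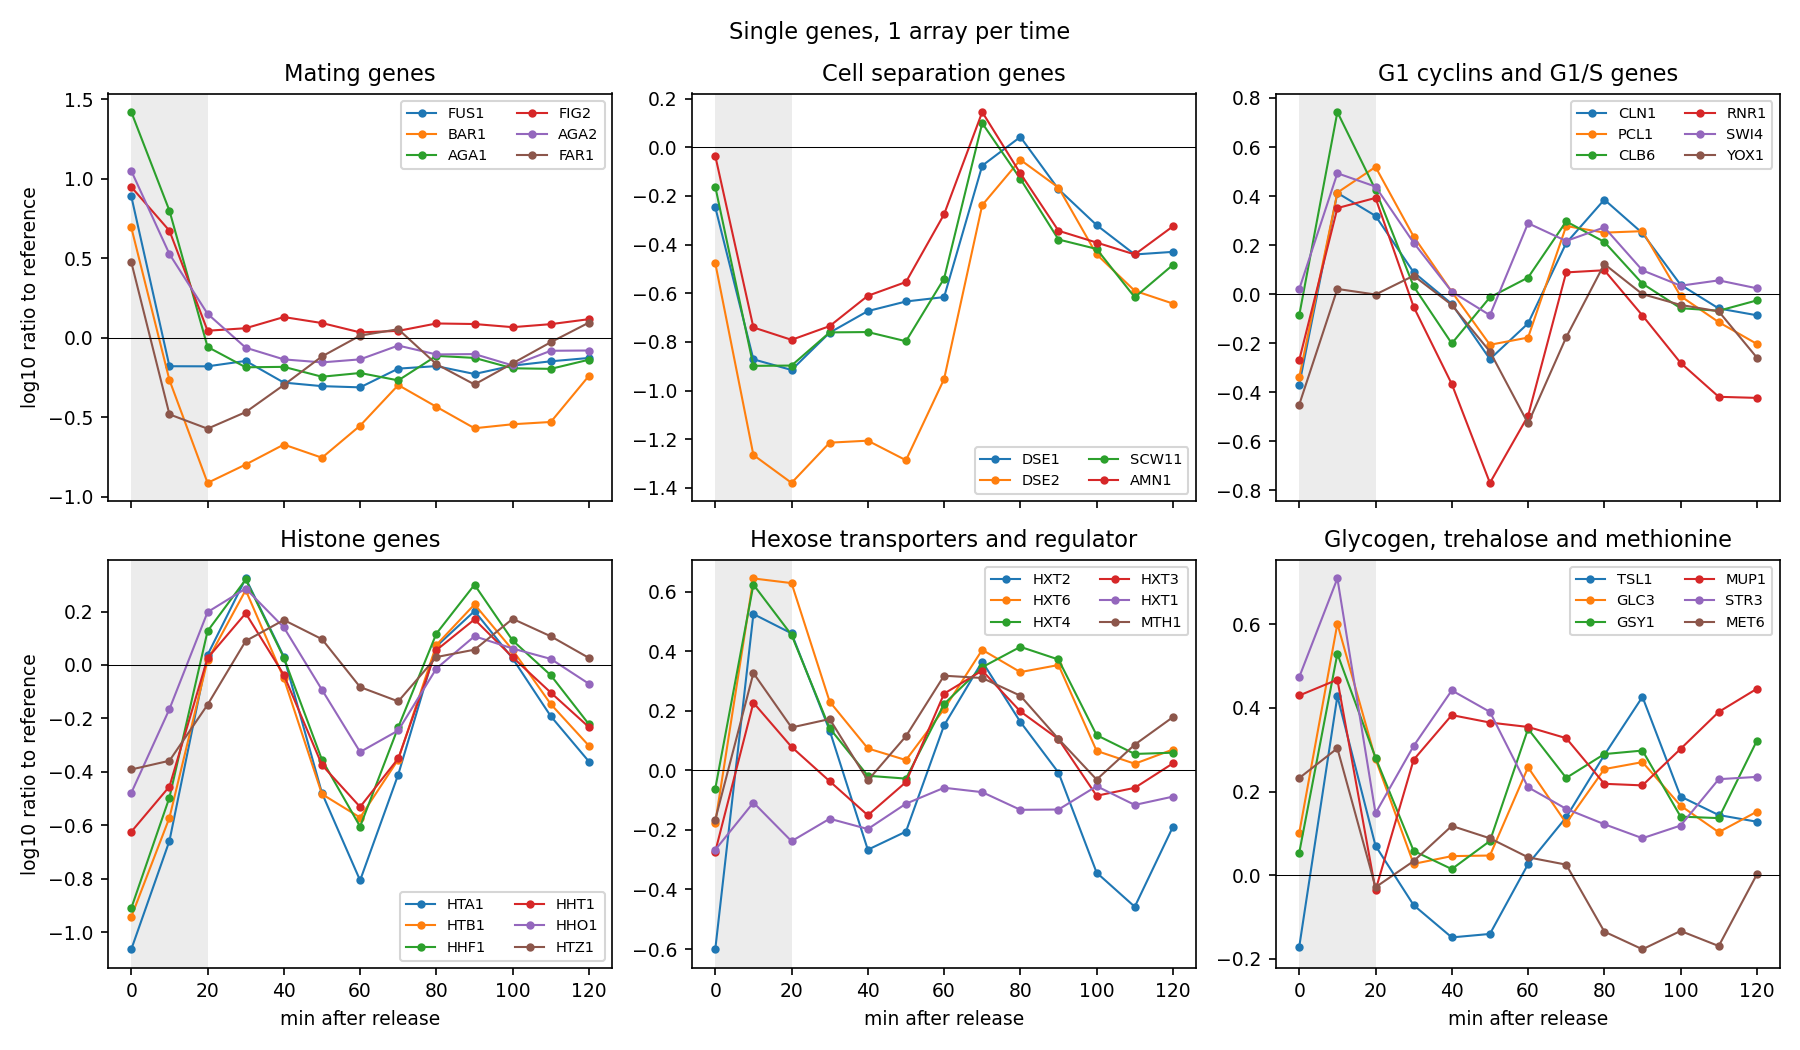
Log10 ratio to the reference against time for single genes named in the text, 1 array per time, grouped by role. The grey band marks 0 to 20 min. No mating gene shown returns to its 0 min level by 120 min, while cyclin and histone genes return to a low between 40 and 60 min and rise again.

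G1 cyclins and other SBF targets were the counterpart. Of 19 SBF targets 9 rose in the first step (against 2.71% of all genes) and none fell, with a median change of 0.28. CLN1, a G1 cyclin that triggers Start, had -0.37, 0.41 and 0.32, 6.06-fold higher at 10 min than at 0 min (change 0.78, scatter 0.066). PCL1, the partner of the Pho85 kinase in G1, had -0.34, 0.41 and 0.52 (5.67-fold). CLN2 rose less, with -0.25, 0.16 and 0.13 (2.58-fold). CLN1 and PCL1 reached values above all their later arrays, whose highest were 0.39 and 0.28. PCL2, the sister cyclin of PCL1, went the other way, with 0.38, 0.11 and 0.21, a 1.85-fold lower value at 10 min that did not reach the threshold. TOS6, a wall protein, was the 1 SBF target that rose in both steps, at -0.46, 0.08 and 0.48 (change 0.54, then 0.40). With quantile normalization its second step, 0.28, did not pass, while 9 of the 19 still rose in the first. SVS1, a wall and vacuolar protein (-0.45, 0.00059, 0.27), the septin kinase gene GIN4 (-0.17, 0.17, 0.43) and TOS4 (-0.32, 0.15, 0.40) also stood higher at 20 min than at 10 min, by 1.78-fold to 1.87-fold. HO, the endonuclease of mating type switching, stayed low at -0.51, -0.64 and -0.50.

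The 2 genes named in the strain label belong to this list. YOX1 had -0.45 at 0 min, 0.02 at 10 min and -0.0020 at 20 min, 2.97-fold higher at 10 min than at 0 min (change 0.47, scatter 0.12). YHP1 had -0.45, -0.45 and -0.34, and changed by 0.0054 in the first step (scatter 0.11). Neither gene was near the deposited limit, so each spot gave a measurable ratio in cells labelled as mutant. The labels say neither what remains of each gene in this strain nor which stretch the spots cover, so the values neither check nor contradict the label.

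MBF targets, mainly genes of DNA synthesis, rose as a group. Of 34 tested 17 rose in the first step (against 2.71% of all genes) and none fell. From 0 to 20 min 23 were higher past the threshold (3.37% of all genes). At 10 min 33 had a higher value than at 0 min, with a median change of 0.30 (-0.0095 over all genes). With quantile normalization 8 of the 34 rose in the first step. CLB6, an S phase cyclin, led with -0.09, 0.74 and 0.43, 6.75-fold higher at 10 min (scatter 0.075) and then 2.08-fold lower at 20 min than at 10 min. It was the 1 MBF target that fell in the second step, and with quantile normalization (-0.20) it did not pass. MCD1, the cleavable cohesin subunit, had -0.39, 0.28 and 0.35, RNR1, the large subunit of ribonucleotide reductase, had -0.27, 0.35 and 0.39, and POL1, the catalytic subunit of polymerase alpha, had -0.22, 0.27 and 0.34. They were up at 10 min and held. The replication protein A genes rose step by step, with RFA1 at -0.12, 0.19 and 0.34 and RFA2 at -0.15, 0.14 and 0.30. DPB3 (0.04, 0.01, 0.01) and PRI1 (0.01, 0.04, 0.04) stayed at the reference level, and CLB5 had too few later values to be tested (0.04, 0.28, -0.02).

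ECB genes rose little beside these. SWI4, the DNA-binding subunit of SBF, was the 1 of 8 tested that passed the threshold in the first step (2.71% of all genes rose). It had 0.02, 0.49 and 0.44 (2.97-fold, scatter 0.10), and with quantile normalization it did not pass. CLN3, the cyclin upstream of SBF and MBF, had 0.10, 0.08 and -0.07. The 6 genes of the MCM helicase, MCM2 to MCM7, were each higher at 10 min than at 0 min, by 1.32-fold to 1.63-fold. Apart from MCM2 these differences exceeded 3 times their scatter, but none reached 2-fold. CDC6 had no value at 10 min, and stood at 0.20 at 20 min, against -0.21 at 0 min. Genes off the lists also rose: ACM1, which restrains the APC activator Cdh1 (-0.09, 0.64, 0.64), and HSL1, a kinase of the morphogenesis checkpoint, which rose gradually (-0.34, -0.05, 0.36).

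Histone genes rose over both steps. All 10 had higher values at 10 min than at 0 min and at 20 min than at 10 min. In the first step 4 rose (against 2.71% of all genes) and in the second 9 (0.281%), and the median change was 0.33 and then 0.59. With quantile normalization 6 rose in the first step and 8 in the second, and the first step was the larger in HTA1 (0.70, then 0.53), HTB1 (0.52, then 0.42), HHT2 (0.34, then 0.32) and HHO1 (0.32, then 0.26). All 10 were below every later array at 0 min, which was so for 11.9% of all genes. HTA1, an H2A gene, had -1.06, -0.66 and 0.04, 4.97-fold higher at 20 min than at 10 min and 12.6-fold higher than at 0 min (change 1.10, scatter 0.14). HHF1, an H4 gene, had -0.91, -0.50 and 0.13, and HTB1, an H2B gene, had -0.94, -0.57 and 0.02. HHT1, an H3 gene, moved 1.48-fold in the first step and 3.02-fold in the second (-0.62, -0.45, 0.03). The linker histone gene HHO1 had -0.48, -0.16 and 0.20. HTZ1, the variant H2A that is made outside S phase, was the exception: with -0.39, -0.36 and -0.15 it passed no threshold. The paired core histone genes are close copies, and spots may not tell them apart.

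**Figure D4:**
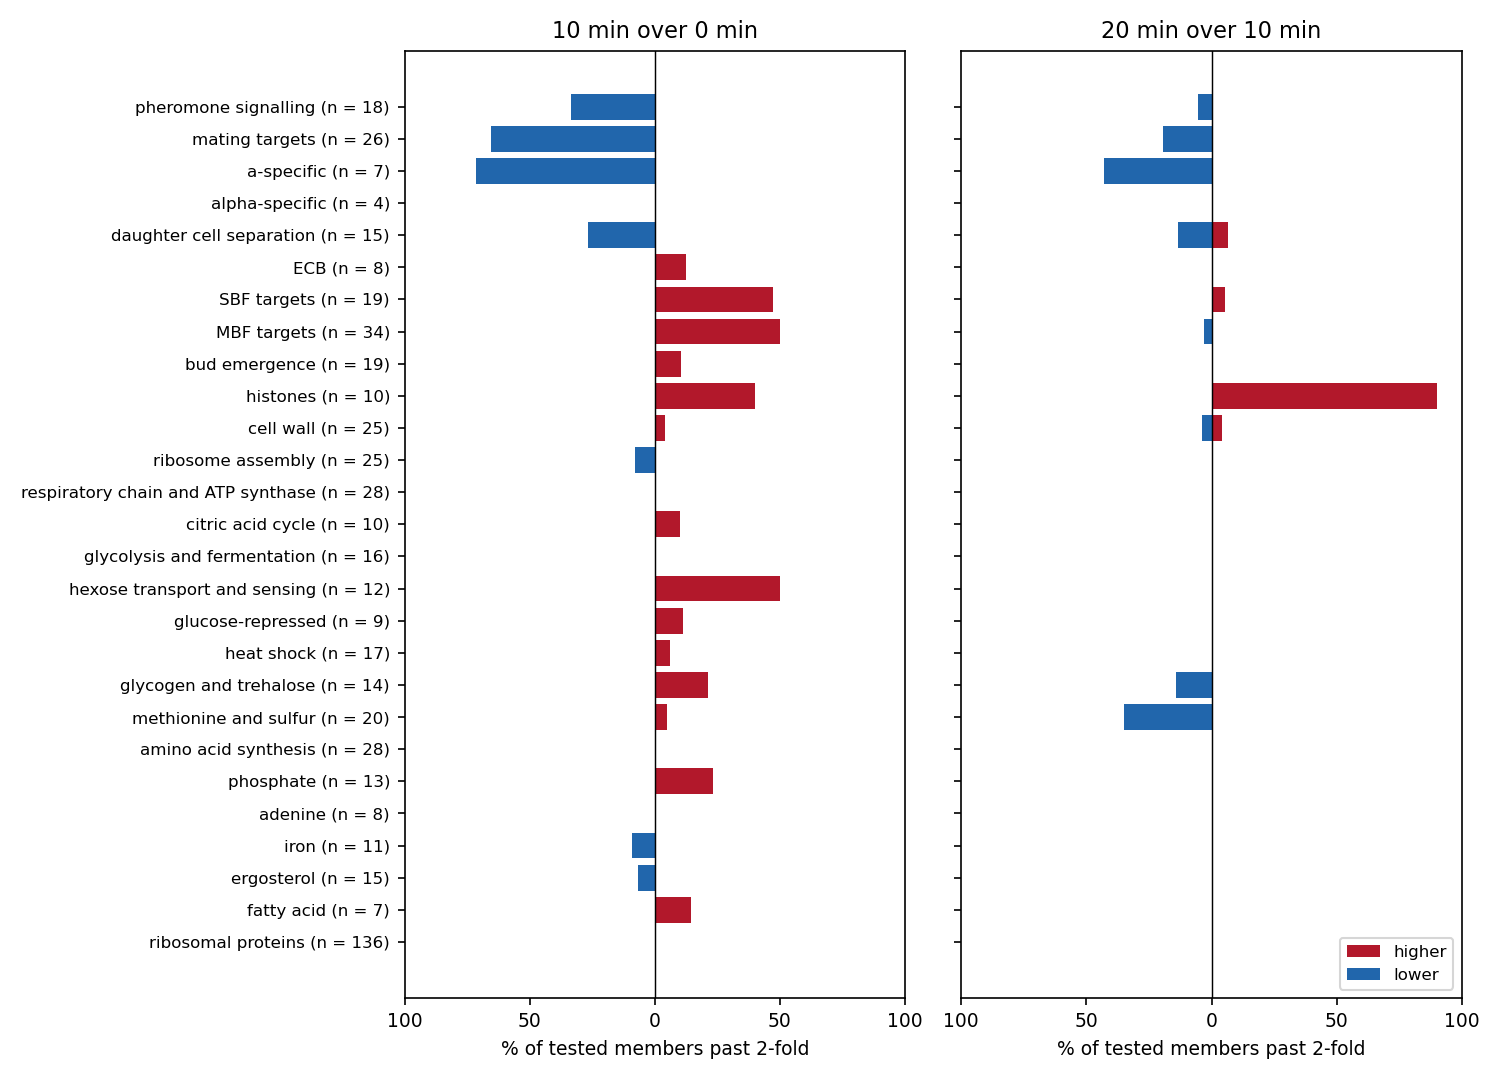
Percent of the tested members of the gene lists described here that were higher (right of the line) or lower (left of it) past 2-fold and 3 times the scatter, in the first step (left panel) and the second (right panel). Mating, a-specific, SBF, MBF and hexose lists have the longest bars in the first panel. In the second they belong to histone genes (9 of 10 higher), a-specific genes (3 of 7 lower), methionine genes (7 of 20 lower) and mating targets (5 of 26 lower).

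Glucose transport genes rose as sharply as the cyclins. Of 12 hexose transport and sensing genes 6 rose in the first step (against 2.71% of all genes) and none fell, with a median change of 0.35. None changed in the second step, and all 6 were still past the threshold from 0 to 20 min. With quantile normalization 6 again rose in the first step. HXT2, a high-affinity transporter, had -0.60, 0.52 and 0.46, 13.4-fold higher at 10 min than at 0 min (change 1.13, scatter 0.078). Both of its values after release exceed its later maximum of 0.36. HXT6 and HXT7, near-identical high-affinity transporters that spots cannot separate, had -0.18, 0.64 and 0.63 and -0.19, 0.54 and 0.60. HXT4 had -0.06, 0.62 and 0.45, and HXT3, a low-affinity transporter, had -0.27, 0.23 and 0.08. HXT1, the low-affinity transporter of high glucose, did not pass (-0.27, -0.11, -0.24), nor did the sensor genes SNF3 (0.02, 0.13, 0.08) and RGT2 (0.07, 0.11, 0.12). MTH1, a corepressor of HXT genes, rose 3.11-fold (-0.17, 0.33, 0.14), and with quantile normalization it did not pass from 0 to 20 min (0.28).

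The lists of central carbon genes held few changes. Changes were also rare over all genes, of which 2.71% rose and 1.22% fell in the first step. ALD4, a mitochondrial aldehyde dehydrogenase, had -0.18, 0.60 and 0.51 (6.06-fold), the 1 of 9 glucose-repressed genes to rise, and CIT1, mitochondrial citrate synthase, had 0.30, 0.76 and 0.60, the 1 of 10 citric acid cycle genes, though not with quantile normalization (0.25). None of 16 glycolysis and fermentation genes and none of 28 respiratory chain and ATP synthase genes changed in either step. Even so, 26 of the 28 had higher values at 10 min than at 0 min (median change 0.09, 1.22-fold, against -0.0095 over all genes). Central carbon genes on none of the lists, picked after their values were seen, did rise in the first step and kept their level: GLK1, glucokinase (0.10, 0.76, 0.65), HXK1, a hexokinase (-0.01, 0.56, 0.40), CIT2, the peroxisomal citrate synthase (-0.04, 0.58, 0.35), ALD6, a cytosolic aldehyde dehydrogenase (-0.07, 0.42, 0.44), and PYC1, a pyruvate carboxylase (0.13, 0.48, 0.47). With quantile normalization GLK1, HXK1 and CIT2 still passed, and ALD6 and PYC1 did not. The largest rise of all was in NCE103, the carbonic anhydrase, which stood at -0.19, 0.94 and 0.69, 13.5-fold higher at 10 min than at 0 min (change 1.13, scatter 0.15). It then slid on the next 2 arrays to 0.50 and 0.20.

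Storage carbohydrate genes moved up and back. Of 14 glycogen and trehalose genes 13 had higher values at 10 min than at 0 min and 11 had lower values at 20 min than at 10 min. The median change was 0.25 and then -0.15, against -0.0095 and -0.00057 over all genes. In the first step 3 genes rose past the threshold (2.71% of all genes) and in the second 2 fell past it (0.595%). TSL1, a subunit of trehalose synthase, had -0.17, 0.43 and 0.07 (3.98-fold higher, then 2.28-fold lower, scatter 0.083). GLC3, the glycogen branching enzyme, had 0.10, 0.60 and 0.28 (3.17-fold, then 2.11-fold lower), and GSY1, a glycogen synthase, had 0.05, 0.53 and 0.28. TPS2, the trehalose phosphatase, showed the same course below the threshold, with 0.14, 0.41 and 0.14. With quantile normalization 1 of the 14 rose in the first step, TSL1 (change 0.45), and none fell in the second. Heat shock genes did not move with them: of 17 only HSP104 rose (0.31, 0.64, 0.50), and with quantile normalization none did. The list median was 0.01, although HSP42 had 0.17, 0.46 and 0.18.

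Of the 19 brief risers 14 were on none of the lists, while of all 6046 genes tested only 559 were on a list. TPO4, a polyamine exporter, had -0.03, 0.48 and -0.03, so that nothing of its 3.25-fold rise was left at 20 min (scatter 0.073). It is also the 1 gene of the 25 that stays in the brief class with quantile normalization (first step 0.33, second -0.32). GIT1, a glycerophosphoinositol transporter, had 0.24, 0.73 and 0.38, PHO89, a sodium phosphate cotransporter, had -0.32, 0.14 and -0.14, and AIM17, a mitochondrial protein, had 0.08, 0.59 and 0.21. In the opposite direction FRE1, the surface reductase for iron and copper, had -0.09, -0.48 and -0.27, and IZH4, a membrane protein of zinc homeostasis, had -0.13, -0.62 and -0.35. The other 4 brief falls were in genes of ribosome assembly or RNA modification, NOG1, DBP8, FAL1 and GCD14, each 2.01-fold to 2.13-fold lower at 10 min. Of the 25 brief genes, 9 also had a counted second step in the opposite direction.

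Methionine and sulfur genes moved late. Of 20 tested 1 rose in the first step (against 2.71% of all genes) and 7 fell in the second (0.595%). At 20 min 19 of 20 were lower than at 10 min. The median change was 0.11 and then -0.21. With quantile normalization 2 of the 20, MUP1 and STR3, fell in the second step and none rose in the first. MUP1, the high-affinity methionine permease, had 0.43, 0.47 and -0.04, a 3.19-fold fall after no first step (scatter 0.055), and at 20 min it was below its later range of 0.21 to 0.45. STR3, a cystathionine lyase, had 0.47, 0.71 and 0.15, a 3.65-fold fall after a 1.72-fold higher value at 10 min. SUL2, a sulfate permease, was brief (0.21, 0.54, 0.18). MET6, methionine synthase, had 0.23, 0.30 and -0.03, and MET1 and MET2 fell with it. Late genes off this list that also handle sulfur compounds were SAM3, the S-adenosylmethionine permease (0.62, 0.72, 0.24), MMP1, the S-methylmethionine permease (0.50, 0.66, 0.28), and GSH1, of glutathione synthesis (0.11, 0.21, -0.19), none of which passed in the second step with quantile normalization. No gene of the 28 in the other amino acid pathways changed, although ARG1, of arginine synthesis, had 0.58, 0.95 and 0.91, a rise within 3 times its scatter of 0.17.

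Ribosome assembly genes on the list moved a little, in one direction. All 25 had lower values at 10 min than at 0 min (median change -0.15, 1.41-fold, against -0.0095 over all genes). Only NOG1 and NOG2, both large subunit assembly GTPases, fell past the threshold (1.22% of all genes did), and with quantile normalization neither did. NOG2 had -0.21, -0.61 and -0.43. At the 1.5-fold threshold 10 of the 25 fell, against 336 of all 6046 genes tested. Other genes of this kind, picked after their values were seen, are among the 63 that fell at once and stayed low. They include DHR2, a helicase of small subunit assembly (-0.49 in the first step), and RSA4, a large subunit factor (-0.41). ENP1, RRP12, HCA4, DBP7 and ECM16 are there too, and none of these passed in the first step with quantile normalization. The assembly genes among the 63 were not counted. TOD6, which is no assembly factor but a repressor of ribosome assembly genes, is also among the 63 (-0.46). TOD6 and RSA4 did not pass with quantile normalization. The 136 ribosomal protein genes showed no counted change, with a median of -0.03 in the first step.

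Lists without a clear course were bud emergence (2 of 19 higher in the first step, AXL2 and RAX2), cell wall (1 of 25 higher, CWP1), phosphate (3 of 13 higher, PHO11, PHO12 and PHO89), iron (1 of 11 lower, FRE1), ergosterol (1 of 15 lower, ERG5), fatty acid (1 of 7 higher, ELO1) and adenine (none of 8). Over all genes 2.71% rose and 1.22% fell in the first step. PHO11 and PHO12 are near-identical acid phosphatase genes and count as 1 measurement. With quantile normalization FRE1 and ERG5 did not pass. CLB2, the main mitotic cyclin, was low throughout, with -0.57, -0.62 and -0.53, below all later arrays, whose lowest was -0.37.

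The arrays of 30 to 120 min played no part in the sorting of the first 20 min beyond the scatter, and show what became of the sorted genes. Of the 140 genes that rose at once and kept their level, 94 still had at least 0.5 of the rise at 30 min, and 24 of the 138 with a value did at 40 min. Of the 63 that fell at once, 37 of 62 did so at 30 min and 33 of 63 at 40 min. From 60 to 80 min, the stretch of the next cycle that lies nearest in phase, 79 of 138 genes of the first group rose at least 1.5-fold again (4.34% of all genes rose that much), while 7 of 62 genes of the second group fell again (3.12% of all genes). All 5 genes that rose in both steps rose again, and none of the 5 that fell in both steps did. Of the brief risers 3 of 17 rose again.

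**Figure D5:**
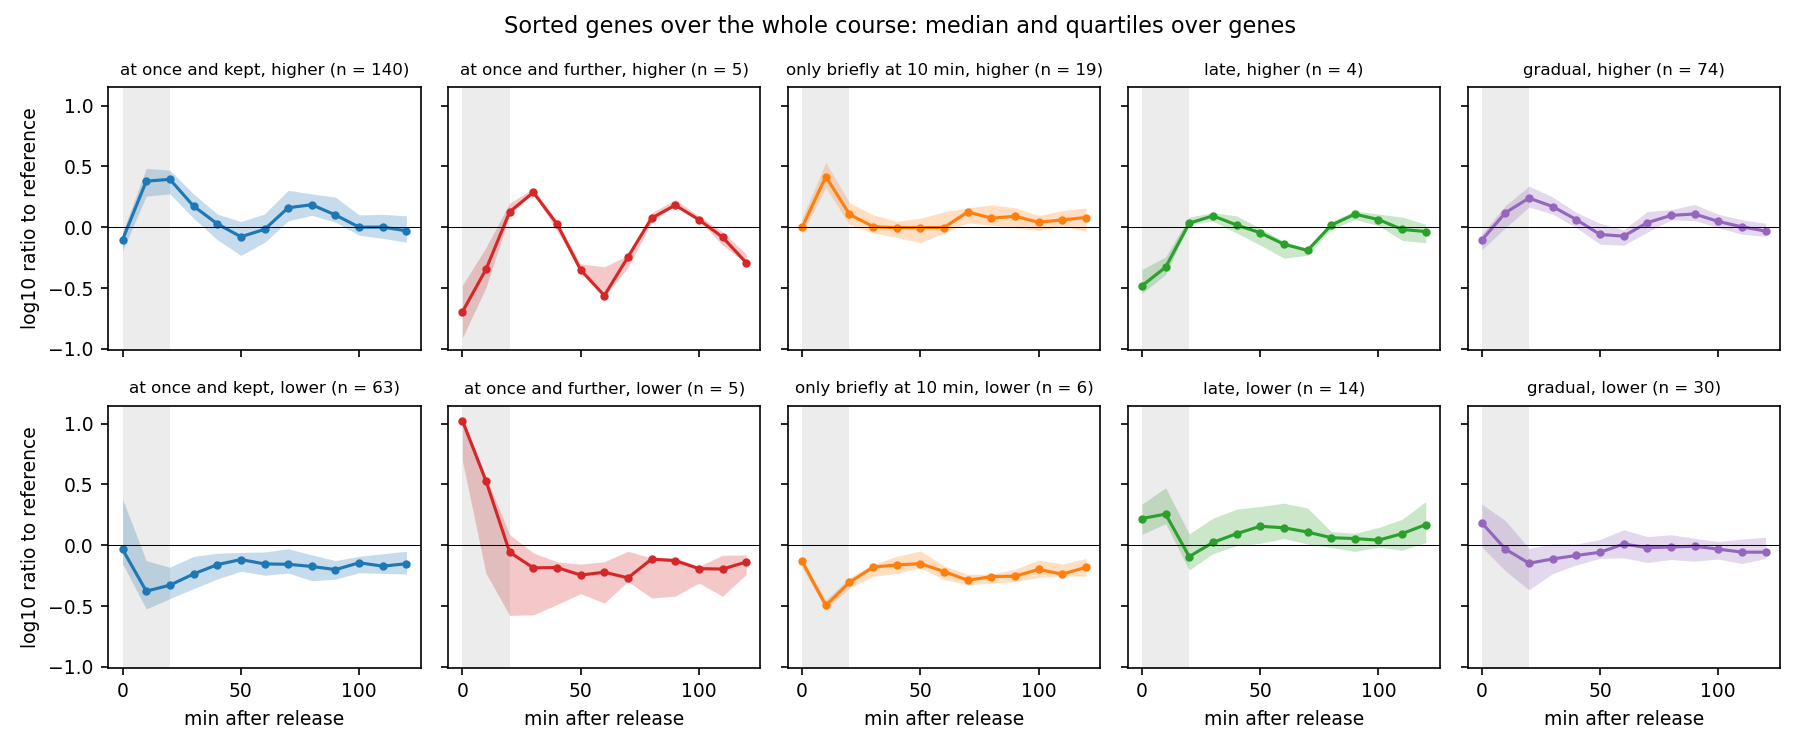
Median log10 ratio (points and line) and quartiles over genes (band) of each class over the whole course, genes that were higher in the top row and lower in the bottom row. The grey band marks 0 to 20 min, the arrays used for sorting. Genes that rose at once and kept their level rise again by 70 to 80 min, while genes that fell in both steps leave 0 min values near 1 and do not return.

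Of the 79 genes that rose again, 53 were on none of the lists and 32 were among the 6 outermost annotated genes of a chromosome end, while 8 were SBF targets and 13 MBF targets. In their whole class of 140 genes, 98 were on none of the lists, and 39 of the 132 that could be placed were outermost. Over all 6046 genes tested, 559 were on a list, and 3.11% of those placed were outermost. Whole lists, whatever the class of their members, can be read in the same way. From 60 to 80 min 15 of 19 SBF targets, 23 of 31 MBF targets and 9 of 10 histone genes rose at least 1.5-fold, and none fell. In the mating list 2 of 26 rose and none fell, and in the hexose list 1 of 11 rose. Over all genes 4.34% rose and 3.12% fell that much. The mating and hexose counts are small, and their distance from these shares was not tested. CLN1 was 0.51 higher at 80 min than at 60 min, and HTA1 0.88 higher, whereas FUS1 was 0.13 higher and HXT2 0.01 higher. HXT2 was at 0.15 by 60 min, reached its later maximum at 70 min and fell back by 80 min. The difference between 60 and 80 min therefore does not show its second rise.

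Of the 140 genes that rose at once and kept their level, 98 were on none of the lists, and many of these lie near chromosome ends. Most genes are on no list, since only 559 of the 6046 tested were on one. Of 132 that the reference table places, 39 are among the 6 outermost annotated genes of a chromosome end, against 3.11% of all genes tested. This grouping was made after the values were seen and is a description. The 7 YRF1 genes, copies of a helicase in the Y-prime repeats, were 3.20-fold to 3.60-fold higher at 10 min than at 0 min. These copies share sequence, so they are not separate measurements, and without the outermost genes the first step has 121 genes higher.

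A value at the deposited limit on 1 of the 3 arrays kept 5 genes out of the comparison: PNC1, YIL067C and YUH1 at 0 min, and YIL025C and BIL1 at 10 min. The other arrays of PNC1, the nicotinamidase, gave 0.49 at 10 min and 0.40 at 20 min.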

How the data were processed

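RNA of 13 time points was measured on two-colour arrays, and the 0, 10 and 20 min arrays are compared here. The deposited values are ratios of Cy5 over Cy3 on a log scale, made and centred near 0 by the authors, with dyes per the labels, and were read as log10 ratios because 18 values sit at exactly 2 or -2 and the largest other value is 1.61. The base and the direction are thus inferred. The sources used here do not give how background was corrected or arrays normalised. Array medians before centring ran from -2.6e-05 to 0.0078. Values at the limit were set to missing and 12 control rows left out. Symbols came from a RefSeq table (5703 of 6205 identifiers matched). Each array gave 6062 to 6176 gene values, and spot brightness and the array count limit the precision.

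Scatter is the square root of 2 times the residual SD over the 30 to 120 min arrays around an intercept, linear time, cosine and sine (period 62 min, found between 50 and 80 min on the SBF and MBF lists), shrunk with squeezeVar of limma 3.58.1 in R 4.3.3. The fits and the sorting were checked on simulated data. Members and all 28 lists were chosen with earlier results of these data known. Named genes are YOX1, YHP1, the 8 largest changes per class and direction, up to 6 members per list, members that oppose their list, all members of lists of 10 or fewer, and genes at the limit; not all of these are printed. Promoter motifs were not analysed here. The result of 1 list is not reported here. Alternatives were another threshold, scatter, period, centring, normalization, filter, limit and share left, and, added after seeing the data, leaving out genes at chromosome ends.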

Additional observations from a re-analysis of the deposited data

Results flagged for a closer look

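In 8 genes sorted by the first 20 min, the change from 60 to 80 min was at least 2-fold in the direction opposite to the change from 0 to 20 min. Each stretch has 1 array at either end, and the difference between the stretches was not tested. The separation genes DSE1, DSE2 and SCW11 were higher at 80 min than at 60 min, by 0.66, 0.90 and 0.41 log10 units, after changes of -0.67, -0.90 and -0.74 from 0 to 20 min. NFG1 was 0.41 higher at 80 min after -0.36. In the other direction CLB1, a mitotic cyclin, changed by -0.36 from 60 to 80 min after 0.32 from 0 to 20 min, and PRY1, a secreted sterol-binding protein, by -0.55 after 0.40. The acid phosphatase genes PHO11 and PHO12, which spots cannot separate, changed by -0.39 and -0.46 after 0.47 and 0.43.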

How the results depend on the processing

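Of the 10 alternatives, only no centring, quantile normalization and keeping values at the limit change the values themselves. No counted direction among the 140 named gene values reversed under these. The other alternatives could not show a reversal, and genes that are not named were not checked for one. A 1.5-fold threshold gave 374 genes higher and 336 lower from 0 to 10 min, 84 and 127 from 10 to 20 min, and 432 and 334 from 0 to 20 min. Its classes held 549 genes that kept their change, 27 that moved further, 134 brief, 115 late and 274 gradual. Quantile normalization gave 100 higher and 28 lower from 0 to 10 min, 8 and 8 from 10 to 20 min, and 45 lower from 0 to 20 min. Its classes held 120 genes that kept their change, 1 brief, 4 late and 67 gradual, of which 110, 1, 2 and 39 were in the same class without it. It moved 93 of 140 named gene values by more than their scatter, and 20 of the counts by list by over 1.5 times. A lower share left at 20 min, 0.333 in place of 0.5, gave 8 brief genes. Dropping the scatter condition, scatter from second differences, a period of 60 min, no centring, keeping values at the limit, requiring all 13 arrays and leaving out chromosome ends each kept every count over all genes and every class size within 1.5 times. Of 51 counts by list, 1 moved further on dropping the scatter condition, 2 with second differences, 1 with a period of 60 min and 1 on requiring all 13 arrays. Counts by list were not made without chromosome ends.

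No paired analysis was possible because each time has 1 array and all samples carry the same replicate number. Leaving out an array removes the comparison it belongs to. Spot brightness over background is unknown.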

Other observations

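The 173 tested genes among the 6 outermost annotated genes of a chromosome end had a median change of 0.11 from 0 to 10 min (1.27-fold), with 43 counted higher and none lower. This group was chosen after its values were seen, and many of its members share repeat sequence. Some genes of chromosome segregation and the spindle pole passed the threshold in the first step (MCD1, PDS5 and SPC42), though PDS5 did not with quantile normalization (0.296). Others passed from 0 to 20 min. SMC1 and SMC3, cohesin subunits, were 0.38 and 0.41 log10 units higher at 20 min than at 0 min (SMC1 did not pass with quantile normalization). SPC97 and SPC98, which bind gamma-tubulin, were 0.34 and 0.35 higher. TOP2, the topoisomerase that untangles sister chromatids, was 3.88-fold higher at 20 min than at 0 min. Of the septin-linked kinase genes, KCC4 changed by 0.57 in the first step and -0.04 in the second, GIN4 by 0.34 and 0.27, and HSL1 by 0.29 and 0.41. These genes were picked after their values were seen.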
